A study of Mus musculus with 11 samples.

Results

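The genes described are those for the nuclear-encoded parts of the mitochondrial respiratory chain. They were taken by symbol from the array's gene table: every gene whose symbol begins with Nduf, Sdh, Uqcr, Cox4, Cox5, Cox6, Cox7, Cox8 or Atp5. This gave 94 genes of the 18193 measured, each read by its brightest probe set. Of these, 44 belong to complex I, 8 to complex II, 8 to complex III, 17 to cytochrome c oxidase (complex IV) and 17 to ATP synthase (complex V). The prefix rule also takes in assembly factors, which build a complex without staying in it. It places Ndufa4 with complex I by its name, although the protein is now counted as a subunit of complex IV. The respiratory subunits encoded in mitochondrial DNA were not analysed here.

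Mouse CD4 T cells were taken from spleens and lymph nodes at 6 to 8 weeks of age, selected for CD4 and sorted on GFP. Their RNA was read on 11 Affymetrix expression arrays, 1 per sample. The 3 TN arrays held naive CD4 T cells lacking Foxp3, the transcription factor of regulatory T cells. The 5 Treg arrays held CD4 T cells that expressed Foxp3, and the 3 GFPKO arrays held GFP+ CD4+ T cells of Foxp3GFPKO/WT mice, whose name gives a GFP-marked Foxp3 knockout allele beside a wild-type one. Foxp3 lies on the X chromosome, so cells that use the marked allele develop in such mice next to cells that use the wild-type allele. The comparisons ask how the 3 kinds of CD4 T cell differ, and the labels do not say which arrays came from separate mice. All p-values therefore measure the spread between arrays, which may be technical.

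The respiratory chain passes electrons from NADH (through complex I) and succinate (through complex II) by way of complex III to oxygen at complex IV. The protons pumped on the way drive ATP synthase. Complex II is also an enzyme of the citrate cycle, and all its subunits are encoded in the nucleus, whereas the other complexes mix nuclear and mitochondrial subunits. Naive T cells are known to rest on oxidative metabolism, and regulatory T cells are known for relying on it more than activated conventional T cells do.

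Promoters of the member genes are shown for 4 genes whose differences between groups are described further on, because nuclear respiratory genes are known to share binding motifs of NRF1, GABP (an ETS factor), YY1 and ERR. Each sequence is RefSeq's, on GRCm38.p6, and runs 5′ to 3′ on the gene's strand from 250 bases before the annotated start to 50 bases after it. Sdhaf1 is at chr7:30322326-30322625, Ndufc1 at chr3:51408906-51409205, Sdhd at chr9:50603800-50604099 and Uqcr11 at chr10:80406772-80407071, each on the minus strand. Capitals mark matches to the motifs searched.
Sdhaf1: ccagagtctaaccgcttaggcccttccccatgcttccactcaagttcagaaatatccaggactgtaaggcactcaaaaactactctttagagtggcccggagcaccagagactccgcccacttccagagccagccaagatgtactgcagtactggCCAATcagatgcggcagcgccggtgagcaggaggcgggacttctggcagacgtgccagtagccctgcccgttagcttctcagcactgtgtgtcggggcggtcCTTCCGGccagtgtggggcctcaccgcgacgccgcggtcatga
Ndufc1: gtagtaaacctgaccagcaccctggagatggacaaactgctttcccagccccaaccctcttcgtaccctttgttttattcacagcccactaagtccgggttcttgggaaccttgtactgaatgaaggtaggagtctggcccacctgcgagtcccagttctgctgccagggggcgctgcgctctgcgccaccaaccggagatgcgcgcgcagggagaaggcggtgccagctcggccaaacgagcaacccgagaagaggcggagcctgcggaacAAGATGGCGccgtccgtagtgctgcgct
Sdhd: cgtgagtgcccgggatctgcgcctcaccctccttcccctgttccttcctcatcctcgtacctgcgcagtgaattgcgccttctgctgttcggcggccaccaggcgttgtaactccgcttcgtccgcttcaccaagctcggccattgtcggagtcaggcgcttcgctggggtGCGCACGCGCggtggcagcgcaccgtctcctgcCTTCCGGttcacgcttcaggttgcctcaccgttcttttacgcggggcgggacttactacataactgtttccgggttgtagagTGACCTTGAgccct
Uqcr11: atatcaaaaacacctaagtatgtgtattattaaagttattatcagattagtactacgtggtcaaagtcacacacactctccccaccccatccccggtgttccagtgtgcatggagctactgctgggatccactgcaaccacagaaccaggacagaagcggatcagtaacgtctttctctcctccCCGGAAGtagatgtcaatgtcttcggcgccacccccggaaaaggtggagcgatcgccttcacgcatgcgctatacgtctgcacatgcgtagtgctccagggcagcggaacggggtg
The motifs were searched on both strands as plain letters: the NRF1 core, CCGGAAG for ETS factors, AAGATGGCG for YY1, TCAAGGTCA for ERR and CCAAT for the CCAAT box. In the Sdhaf1 window the ETS letters began at base 258, just past the start, and CCAAT at base 156. In Ndufc1 the YY1 letters began at base 273. Sdhd held the NRF1 core from base 172, the ETS letters from base 205 and the ERR letters from base 287. In Uqcr11 the ETS letters began at base 185.

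Promoter windows were found for 78 of the 94 genes. The NRF1 core was present in 19 of the 78 (24.4%), against 5.19% of all 27025 genes with a window. The ETS letters were present in 22 (28.2%, against 9.93%), the YY1 letters in 7 (8.97%, against 1.64%) and the ERR letters in 2 (2.56%, against 0.466%). CCAAT occurred in 33 (42.3%), close to the 41.1% of all genes. The first 4 motifs were thus more frequent among respiratory chain genes than among all genes, and CCAAT was not. A match is a description of the letters and not of a bound site. Among the 19 genes that read higher on Treg than on GFPKO arrays described further on, 17 had a window, of which 4 held the NRF1 core (23.5%), 6 the ETS letters (35.3%), 1 each the YY1 and ERR letters (5.88%) and 3 CCAAT (17.6%, a smaller share than among all genes).

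The arrays carried signs that bear on how the groups can be read. All values are on the log2 scale. The Foxp3 probe set read 3.48 ± 0.45 (SD, n = 3) on TN, 3.47 ± 0.16 (n = 5) on Treg and 6.93 ± 0.23 (n = 3) on GFPKO arrays, so it went against the Treg label, and the arrays are called by their labels throughout. Other Treg genes followed the labels: Il2ra read 3.56, 9.18 and 8.41 and Ctla4 5.81, 10.16 and 9.66 in the same order. Xist read 11.34 on GFPKO arrays and at most 3.78 on average elsewhere, and the Y-linked Eif2s3y read 2.88 against 8.19 on TN and 7.70 on Treg arrays. GFPKO arrays thus read as female and the others as male, and sex and genotype cannot be told apart in any comparison with GFPKO. The mean of 10 T cell identity genes lay between 10.78 and 11.05 on all arrays. Markers of B cells lay at background for 7 of 9 genes, and those of erythroid cells and platelets for 4 of 5. The summed B cell level (log2) was higher on Treg arrays, at 8.31 to 8.59, than on TN (7.31 to 7.46) and GFPKO arrays (7.12 to 7.53), with 1 gene higher and 1 lower on Treg than on TN and 2 higher and 0 lower on Treg than on GFPKO arrays by limma.

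Most respiratory chain genes were bright. Background was set at 5.57, the 90th percentile over 21 genes of other organs, and 87 of the 94 genes lay above it on average, against 8195 of 18193 genes. The 7 below were Cox4i2, Cox6b2, Cox7a1, Cox7b2, Cox8b, Ndufa4l2 and Ndufb4. Ndufb4, a constitutive subunit of complex I, and Cox7c, which read only slightly above background, rest on the probe sets that name a single gene, and those with several names were left out, so their true levels are not known from these values. The median gene of the chain read 10.48 to 10.67 on TN, 10.61 to 10.92 on Treg and 10.14 to 10.69 on GFPKO arrays. Replicates lay close together on TN arrays, where the median SD over the 94 genes was 0.075, and further apart on Treg (0.11) and GFPKO arrays (0.20). For all genes above background the same medians were 0.14, 0.16 and 0.31.

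**Figure D1:**
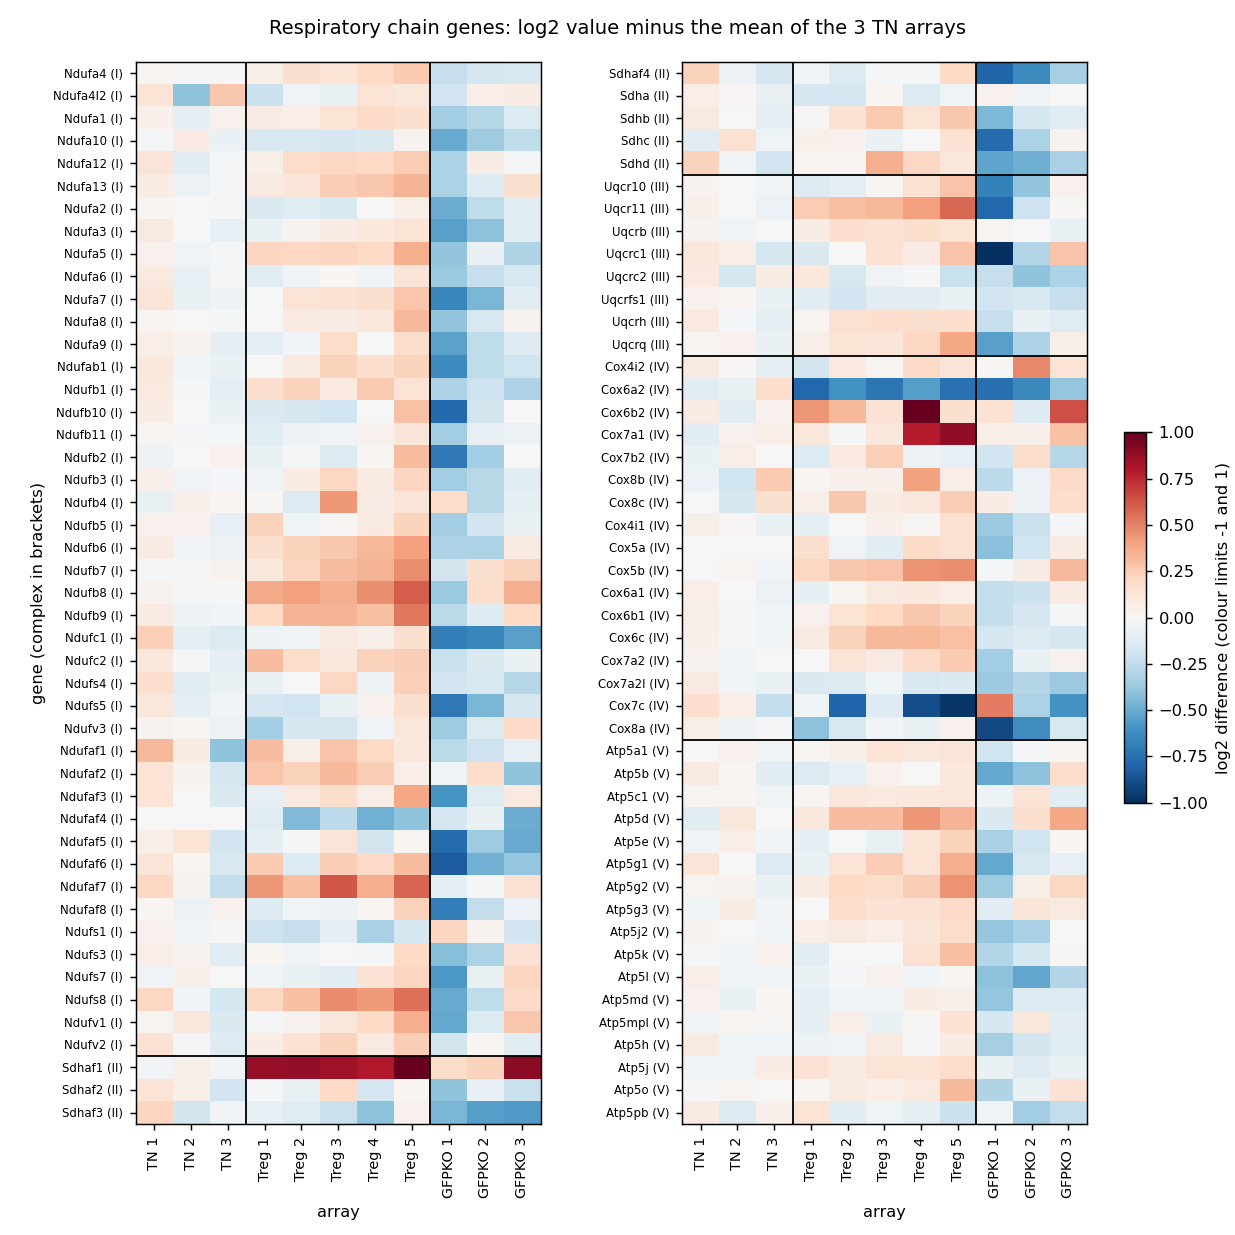
Log2 value minus the TN mean for 94 respiratory chain genes (rows, by complex) on 11 arrays (columns), with colours limited to -1 and 1. The GFPKO columns are mostly blue (lower), most strongly for replicate 1, and most single rows of the Treg columns are pale.

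Complex IV has subunits that come in widely expressed and tissue-restricted forms. The widely expressed forms were high in all groups. Cox4i1, a nuclear-encoded subunit, averaged 12.83 on TN, 12.85 on Treg and 12.63 on GFPKO arrays. Cox6a1 averaged 13.26, 13.30 and 13.14, Cox6b1 12.21, 12.38 and 12.07, and Cox7a2 12.21, 12.34 and 12.08. Cox8a averaged 11.05, 10.92 and 10.49, with GFPKO arrays at 10.15, 10.43 and 10.89. None of these 5 genes passed the test in any comparison.

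The partners known from heart, muscle, lung or testis were at or near background. Cox4i2, the form known from lung and hypoxic cells, averaged 5.10, 5.15 and 5.31. Cox7a1, of heart and muscle, averaged 2.72, 3.09 and 2.85. Cox6b2, of testis, averaged 4.08, 4.52 and 4.30, and Cox8b, of muscle and brown fat, 4.10, 4.22 and 4.05. Cox8c was slightly above background at 6.19, 6.34 and 6.25. Cox6a2, the heart and muscle form of the subunit VIa gene, was the exception that differed between groups. Ndufa4l2, the hypoxia-linked relative of Ndufa4, stayed at background on average (5.32, 5.31 and 5.30).

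Cox7a2l, which helps join complexes III and IV into supercomplexes, averaged 12.14, 12.01 and 11.79. All 3 GFPKO arrays read lower than every array of the other groups, but neither difference passed the test: GFPKO minus TN was -0.35 ± 0.11 (SE) with an adjusted p of 0.108, and Treg minus GFPKO 0.22 ± 0.10 with an adjusted p of 0.224. The 3 genes for the c subunit of ATP synthase, which encode the same mature protein, also did not pass. Atp5g1 averaged 10.39, 10.56 and 10.14, Atp5g2 11.59, 11.82 and 11.56, and Atp5g3 12.60, 12.73 and 12.63.

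Treg arrays differed little from TN arrays. By limma, with Benjamini-Hochberg adjustment over all 18193 genes and a call at an adjusted p under 0.05, 2 of the 94 genes were higher on Treg arrays (2.13%, against 6.54% of all genes) and 1 was lower (1.06%, against 3.42%). At an unadjusted p under 0.05 the counts were 11 and 3 (background 11.9% and 8.03%). The difference was positive for 70 of the 94 genes and negative for 24, against 10149 and 8044 of all genes. Among genes above background it was positive for 3965 and negative for 4230. The median log2 difference of the 94 genes was 0.10, against 0.03 over all genes and -0.01 over genes above background. It became -0.04 when arrays were centred on their medians, which moved the median of all genes to -0.11. With that centring 1 gene was called higher and 2 lower, where 4.97% and 6.45% of all genes were called. By complex, the medians were 0.11 for I, 0.02 for II, 0.11 for III, 0.08 for IV and 0.09 for V. The arrays of the groups did not overlap for 22 genes higher on Treg (background 11.7%) and 3 lower (background 7.84%). In bulk RNA of this kind, fewer cells of a type and less RNA per cell cannot be told apart. The 3 genes called were Sdhaf1 and Ndufaf7, which rose, and Cox6a2, which fell.

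Sdhaf1 encodes an assembly factor of complex II that helps insert the iron-sulfur clusters of SDHB. It read 9.37, 9.46 and 9.37 on TN arrays. On Treg arrays it read 10.27, 10.28, 10.25, 10.20 and 10.40, so the groups did not overlap. It was 0.88 ± 0.15 (SE) higher on Treg arrays, 1.85-fold, with an adjusted p of 0.000802 by limma. The call held under all 19 alternatives run for it, with adjusted p-values from 1.32e-05 to 0.00656. On GFPKO arrays it read 9.58, 9.62 and 10.30: replicates 1 and 2 lay just above the TN arrays and replicate 3 lay among the Treg arrays. Neither GFPKO minus TN (0.44 ± 0.17, adjusted p 0.178) nor Treg minus GFPKO (0.45 ± 0.15, adjusted p 0.0793) passed. No other gene of complex II was called between Treg and TN arrays, and the differences of the 4 subunit genes Sdha to Sdhd lay between -0.10 and 0.16.

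Cox6a2 read 6.12, 6.15 and 6.40 on TN arrays. It read 5.44, 5.62, 5.50, 5.67 and 5.48 on Treg arrays and 5.47, 5.58 and 5.84 on GFPKO arrays. Both groups lay wholly below the TN arrays and overlapped each other. The gene was lower by 1.60-fold on Treg arrays (log2 difference -0.68 ± 0.12, adjusted p 0.00153 by limma, called under all 19 alternatives). On GFPKO arrays the difference from TN was -0.59 ± 0.14 with an adjusted p of 0.0178, and the call held under 14 of 20 alternatives. Its levels on Treg and GFPKO arrays were at about the background of 5.57, so the folds may understate the difference. Myeloid and dendritic markers were also highest on TN arrays: their mean was 6.04 to 6.56 on TN, 5.01 to 5.32 on Treg and 4.43 to 4.68 on GFPKO arrays. Of 16 such genes, 10 were lower and 2 higher on Treg than on TN arrays. On GFPKO arrays 11 of the 16 were lower than on TN arrays. Cd14, Itgam, Itgax, Siglech and Flt3 were below background. The summed level (log2) of 8 markers of CD8 T and NK cells was 9.89 to 10.11 on TN, 8.55 to 8.78 on Treg and 8.07 to 8.34 on GFPKO arrays. Of these, 3 were lower and 1 higher on Treg than on TN arrays, and 4 were lower on GFPKO than on TN arrays. Cd8a, Klrk1 and Ncr1 were below background. The part of all these cells in the Cox6a2 result was not tested.

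Ndufaf7, a methyltransferase that modifies a core subunit during assembly of complex I, read 6.89, 6.72 and 6.45 on TN arrays. It read 7.12, 6.99, 7.31, 7.05 and 7.27 on Treg arrays, all above the TN arrays. The difference of 0.46 ± 0.13 had an adjusted p of 0.0349, and the call held under 11 of 19 alternatives. Among the leave-one-out fits it was lost without TN replicate 2 or 3 and without Treg replicate 1, 3 or 5, with 1 of the 94 genes then called higher. Without GFPKO replicate 1, which enters only through the shared spread, 4 were called higher (8.05% of all genes), Ndufb8 and Uqcr11 among them. Just outside the threshold was Ndufb8, an accessory subunit of complex I, at 0.44 ± 0.15 with an adjusted p of 0.0786. The largest decrease in complex I was that of Ndufaf4, a further assembly factor, at -0.35 ± 0.13 with an adjusted p of 0.124. Its Treg arrays (7.78 to 8.14) all lay below its TN arrays (8.26 to 8.27), and it was called lower with arrays centred. Genes of the cell cycle were higher on Treg arrays (mean 6.70 to 7.10, against 5.59 to 5.70 on TN and 6.02 to 6.33 on GFPKO arrays), with 14 of 19 called; their part in these differences was not tested.

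GFPKO arrays read lower than TN arrays for most of the chain. The difference was negative for 82 of the 94 genes and positive for 12, with a median of -0.19 against -0.04 over all genes. It was also negative for 10332 of all 18193 genes and for 5179 of the 8195 above background. By limma, 4 genes fell (4.26%, against 3.02% of all genes) and 0 rose (against 2.64%). Among genes above background, where 87 of the 94 lie, 4.66% fell and the median was -0.09, so the members' share of calls was not higher than that of the genes above background. At an unadjusted p under 0.05, 20 were lower (background 10.6%) and 1 was higher (background 6.01%). All 3 GFPKO arrays lay below all 3 TN arrays for 33 genes, where 11% of all genes did so, and above them for 1 (background 7.06%). The medians by complex were -0.20 for I, -0.30 for II, -0.29 for III, -0.13 for IV and -0.15 for V.

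Ndufc1, a small accessory subunit of complex I, had the largest decrease. It read 10.68, 10.34 and 10.30 on TN arrays and 9.76, 9.79 and 9.90 on GFPKO arrays. Treg arrays read 10.39, 10.40, 10.53, 10.49 and 10.60, level with TN. GFPKO minus TN was -0.62 ± 0.13 with an adjusted p of 0.0104 by limma, and the call held under 16 of 20 alternatives. It was lost without TN replicate 1 (adjusted p 0.0713), with the actin control as a covariate, with only TN and GFPKO arrays fitted, and with GFPKO replicates 1 and 2 both left out. A further probe set of Ndufc1 was also called lower. The promoter printed above is that of this gene, with the YY1 letters downstream of its start.

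The other genes called lower than TN were Sdhaf4, Ndufaf5 and Cox6a2. Sdhaf4, which helps join SDHA to SDHB, read 9.42, 9.13 and 9.02 on TN and 8.39, 8.55 and 8.86 on GFPKO arrays, a difference of -0.59 ± 0.15 with an adjusted p of 0.0341. Ndufaf5, which hydroxylates a core subunit of complex I during assembly, read 7.34, 7.42 and 7.09 on TN and 6.51, 6.93 and 6.78 on GFPKO arrays, a difference of -0.54 ± 0.15 with an adjusted p of 0.0421. The arrays did not overlap for either gene. The Sdhaf4 call held under 10 of 20 alternatives and the Ndufaf5 call under 7. Sdhaf3, a further assembly factor of complex II, was just outside the threshold at -0.52 ± 0.15 with an adjusted p of 0.0511, its GFPKO arrays lying just below background, as was Ndufaf6 at -0.56 ± 0.16 with an adjusted p of 0.0515. Of the 12 assembly factors named Nduf or Sdh, 2 fell, Sdhaf4 and Ndufaf5 (16.7%, against 3.02% of all genes), and 0 rose (1 at an unadjusted p under 0.05).

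The count of 4 depended on single arrays. It was 14 without GFPKO replicate 3, where 6.73% of all genes were called lower, against 3.02% with all arrays. It was 1 without TN replicate 1 (1.49% of all genes) or GFPKO replicate 1 (2.79%). Without TN replicate 2 (1.71%), Treg replicate 3 (2.59%) or GFPKO replicate 2 (1.99%) it was 2. With only TN and GFPKO arrays in the fit it was 0 (13 at an unadjusted p under 0.05), with 1.38% of all genes called lower.

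Treg arrays read higher than GFPKO arrays across the chain, and this was the comparison with the most calls. By limma, 19 of the 94 genes rose on Treg relative to GFPKO arrays (20.2%, against 6.88% of all genes) and 0 fell (against 2.55%). Among genes above background, 10.5% rose and 4.42% fell, while 21.8% of the 87 members there rose. At an unadjusted p under 0.05 the counts were 49 and 0, against 16.7% and 6.54% of all genes. Of the 8195 genes above background, 1986 were higher and 901 lower at that threshold. The difference was positive for 87 genes and negative for 7. It was also positive for 11583 of all 18193 genes and for 5173 of the 8195 above background. The median of the 94 genes was 0.27, against 0.08 over all genes and 0.11 over genes above background. Treg and GFPKO arrays did not overlap for 40 genes that were higher on Treg (background 11.1%) and for 0 that were lower (background 3.31%). Among the 8195 genes above background, 1337 were higher and 410 lower without overlap. The genes called were 13 of 44 in complex I, 3 of 8 in complex II and 1 each in complexes III, IV and V. Medians were 0.33, 0.40, 0.33, 0.22 and 0.21 in that order. The comparison shares its arrays with the other comparisons, so the 3 are not independent.

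**Figure D2:**
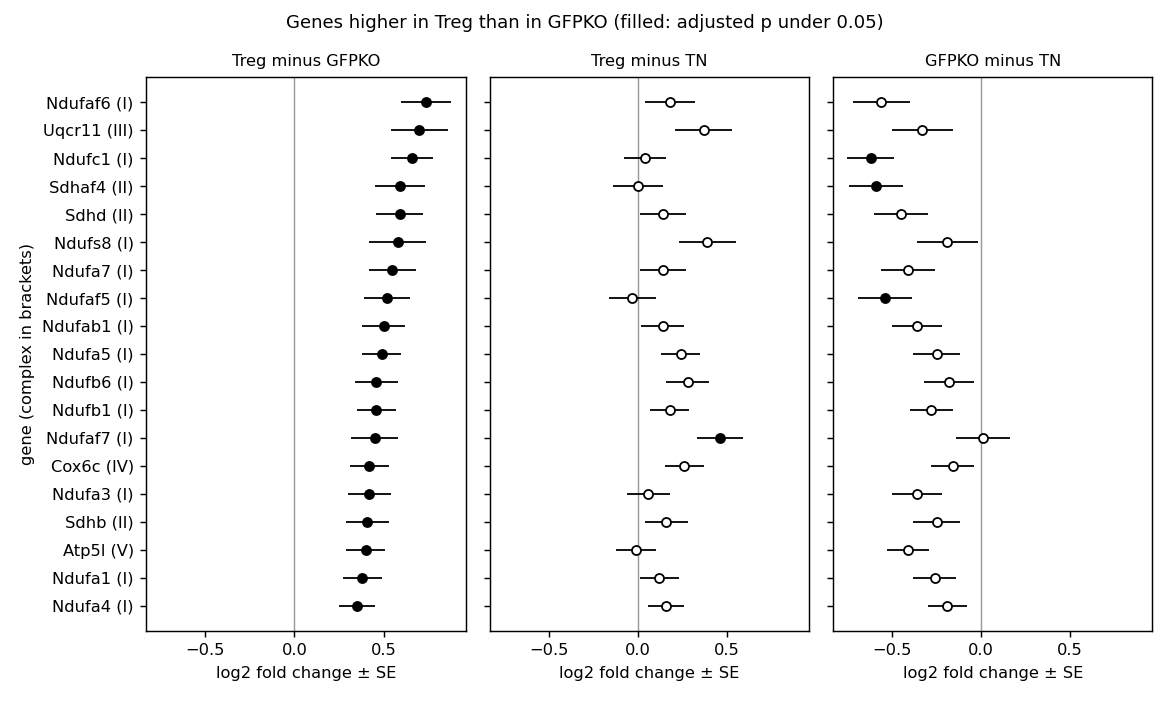
Log2 difference ± SE (horizontal axis) of the 19 genes called higher on Treg than on GFPKO arrays, in the 3 comparisons of TN (n = 3), Treg (n = 5) and GFPKO (n = 3) arrays. Filled points have an adjusted p under 0.05, and for most genes the GFPKO minus TN point lies below 0 while the Treg minus TN point lies near or above it.

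In complex I the calls were spread over parts of the enzyme. They comprised 8 of 28 accessory subunits, 1 of 6 core subunits, 3 of 8 assembly factors and Ndufa4. Ndufaf6, an assembly factor, had the largest difference. It read 6.66, 6.26, 6.65, 6.59 and 6.72 on Treg arrays and 5.57, 5.92 and 6.01 on GFPKO arrays, without overlap. GFPKO replicate 1 lay at about the background of 5.57 and the others not far above it, so the size of the difference is uncertain. Treg minus GFPKO was 0.74 ± 0.14, with an adjusted p of 0.00372. Ndufc1 followed at 0.66 ± 0.12 with an adjusted p of 0.00251. Both calls held under 19 of 20 alternatives, and each was lost when GFPKO replicates 1 and 2 were both left out.

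The only core subunit called was Ndufs8, which carries iron-sulfur clusters on the path to ubiquinone. It read 11.44, 11.54, 11.71, 11.66 and 11.79 on Treg arrays and 10.73, 10.98 and 11.43 on GFPKO arrays. GFPKO replicate 3 lay just below the lowest Treg arrays. The difference was 0.58 ± 0.16, with an adjusted p of 0.0288, and the call held under 10 of 20 alternatives. Ndufs1, the largest core subunit, went the other way without passing (-0.23 ± 0.12, adjusted p 0.27).

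Accessory subunits showed differences of similar size. Ndufa7 differed by 0.55 ± 0.13 (adjusted p 0.0158), Ndufab1, the mitochondrial acyl carrier protein, by 0.50 ± 0.12 (adjusted p 0.0198), and Ndufa5 by 0.49 ± 0.11 (adjusted p 0.0115). Ndufb6 differed by 0.46, with an adjusted p of 0.0299. Ndufb1 was called (adjusted p 0.0128), but its GFPKO arrays read 5.32, 5.42 and 5.32, all below the background of 5.57, so the size of its difference is not known. Ndufa3 (0.42, adjusted p 0.0435) and Ndufa1 (0.38, adjusted p 0.0356) completed the accessory subunits called. Ndufa1 and Ndufb11 are the members on the X chromosome for which a promoter window was found, and Ndufb11 was not called (0.15 ± 0.11). Among assembly factors, Ndufaf5 differed by 0.52 ± 0.13 (adjusted p 0.0219) and Ndufaf7 by 0.45 ± 0.13 (adjusted p 0.0436). Ndufa4 lay just inside the threshold at 0.35 ± 0.10 with an adjusted p of 0.0445, and Ndufc2 just outside it at 0.36 ± 0.11 with an adjusted p of 0.051. Of these calls, that of Ndufb1 held under 17 of 20 alternatives and that of Ndufa3 under 5. Those of Ndufaf7 and Ndufa4 held under 6, and those of Ndufb6 and Ndufa1 under 9.

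Within complex II the subunits did not move alike. Sdhd, a membrane anchor, read 9.47, 9.47, 9.81, 9.65 and 9.56 on Treg arrays and 8.92, 8.96 and 9.12 on GFPKO arrays. It was higher on Treg arrays by 0.59 ± 0.13, with an adjusted p of 0.00912. Sdhb, the iron-sulfur subunit, was higher by 0.41 ± 0.12 with an adjusted p of 0.0443. The Sdhd call held under 17 of 20 alternatives and the Sdhb call under 6. Sdhc, the other membrane anchor, differed by 0.38 ± 0.15 without passing (adjusted p 0.14), since its GFPKO arrays ran from 7.93 to 8.73. Sdha, the flavoprotein that oxidises succinate, averaged 10.54, 10.44 and 10.54 on TN, Treg and GFPKO arrays, a difference of -0.10 ± 0.11. When all probe sets of a gene were averaged, Sdha was called lower on Treg than on GFPKO arrays. Its probe sets above background differed by -0.10 and -0.18 without passing (adjusted p 0.644 and 0.352 by limma over all probe sets). Those below background, with means of 5.24 and 2.47, differed by -0.88 (adjusted p 0.00247) and -0.21 (adjusted p 0.412). The assembly factor Sdhaf4 differed by 0.59 ± 0.14 (adjusted p 0.0132).

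The remaining complexes gave 1 gene each. Uqcr11, a small subunit of complex III, read 10.56, 10.61, 10.64, 10.72 and 10.88 on Treg arrays and 9.52, 10.10 and 10.32 on GFPKO arrays, a difference of 0.70 ± 0.16 with an adjusted p of 0.0102. Uqcrc1, a core protein of the same complex, varied most among GFPKO arrays, at 9.52, 10.35 and 10.93, and was not called. In complex IV, Cox6c was higher on Treg arrays by 0.42 ± 0.11 (adjusted p 0.0209). In ATP synthase, Atp5l, which encodes subunit g of the membrane part, was higher by 0.40 ± 0.11 (adjusted p 0.0273). The Uqcr11 call held under 17 of 20 alternatives, that of Cox6c under 12 and that of Atp5l under 9. None of the 5 genes of the catalytic F1 head was called, with differences between 0.10 and 0.23.

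**Figure D3:**
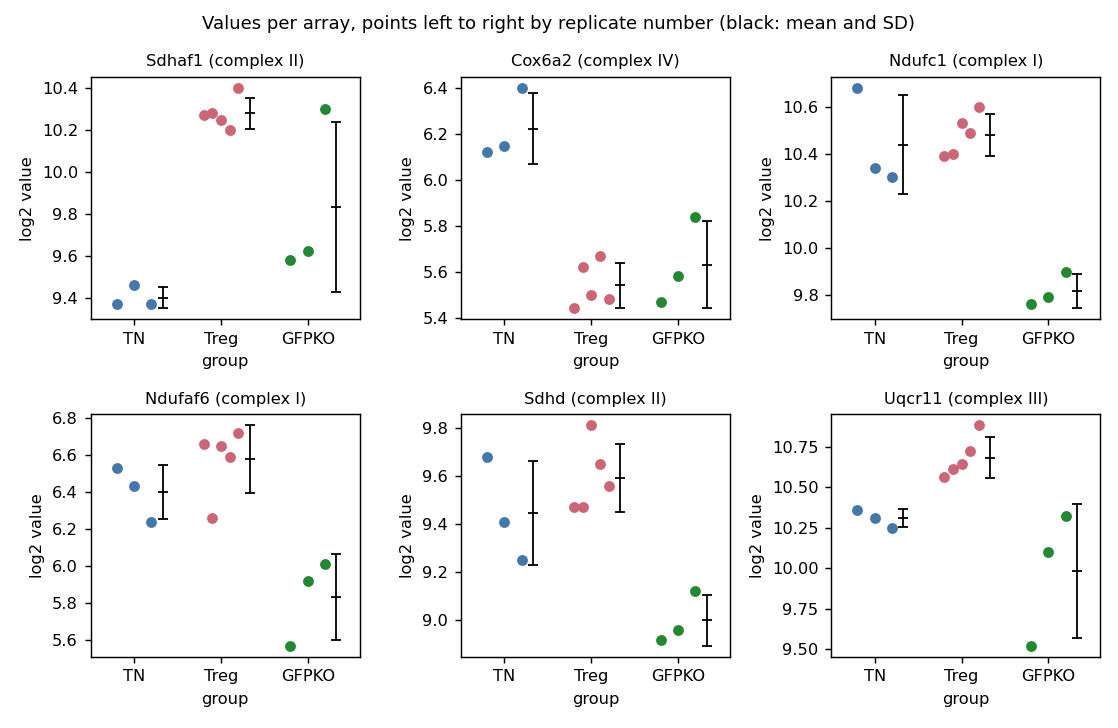
Log2 value of Sdhaf1, Cox6a2, Ndufc1, Ndufaf6, Sdhd and Uqcr11 on each TN (n = 3), Treg (n = 5) and GFPKO (n = 3) array (points), with the group mean ± SD (bars). Sdhaf1 is lowest on TN arrays, Cox6a2 is highest there, and the other 4 genes are lowest on GFPKO arrays.

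Several of these genes have further probe sets. For 9 of the 19 genes, 16 other probe sets read above background. All 16 had the same sign as the one used, 6 were also called, and 0 were called in the opposite direction.

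The 3 GFPKO arrays differed among themselves, and the same array was lowest for most of the chain. The median of the 94 genes relative to the TN mean was -0.35 on GFPKO replicate 1, -0.18 on replicate 2 and -0.06 on replicate 3. TN arrays ran from -0.04 to 0.06 and Treg arrays from 0.00 to 0.19. GFPKO replicate 1 held the lowest value of all 11 arrays for 65 of the 94 genes, and Treg replicate 5 the highest for 45. On replicate 1, 83 of the 94 genes (88.3%) read below every Treg array, against 43.5% of all genes. The same counts were 72 (76.6%, against 32.5%) on replicate 2 and 49 (52.1%, against 25%) on replicate 3.

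**Figure D4:**
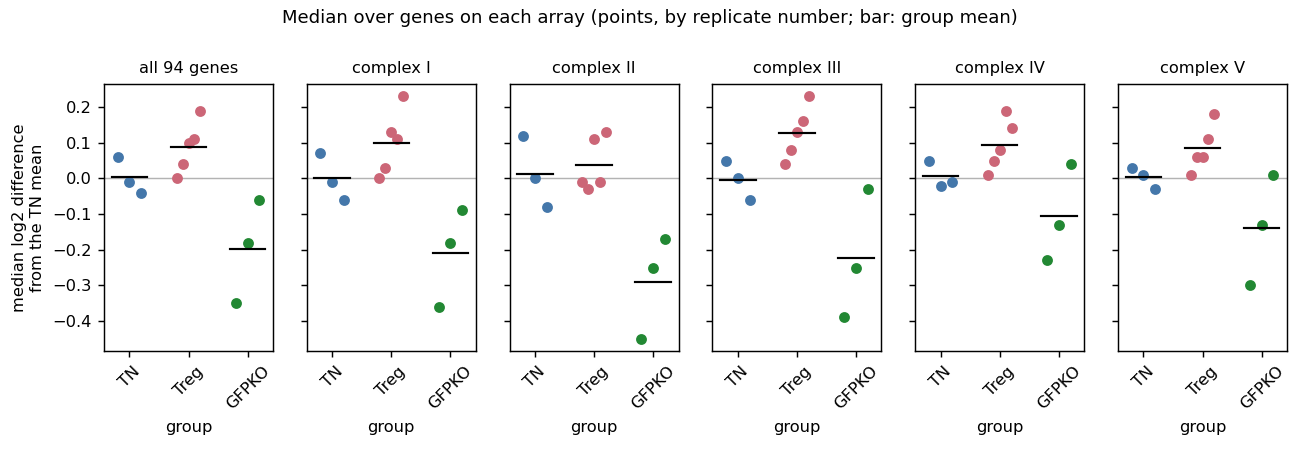
Median over genes of the log2 value minus the TN mean, for each of the 11 arrays (points), for all 94 genes and for each complex. GFPKO replicate 1 lies lowest at -0.35 for all 94 genes, and Treg arrays lie at or above 0 for all 94 genes but down to -0.03 for complex II.

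A measure of RNA integrity also differed among these arrays. The actin control's 3′ probe set read above its 5′ probe set by 0.77 on GFPKO replicate 1, 0.832 on replicate 2 and 0.451 on replicate 3. This difference was 0.381 to 0.526 on TN and 0.442 to 0.611 on Treg arrays, so replicates 1 and 2 stood outside both ranges and replicate 3 within them. For the Gapdh control the GFPKO values were 0.456, 0.562 and 0.229, against at most 0.312 elsewhere. With the actin difference as a covariate, 4 genes were called higher on Treg than on GFPKO arrays (Ndufa5, Ndufaf6, Ndufb1 and Ndufc1) in place of 19, the median difference was 0.19, and 3.21% of all genes were called higher. The part of RNA integrity in these differences was otherwise not tested.

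The count of 19 depended on single arrays and on centring. With arrays centred on their medians it was 6 (Ndufa7, Ndufaf6, Ndufc1, Sdhaf4, Sdhd and Uqcr11), with 3.71% of all genes called higher. The median was then 0.10 against -0.09 over all genes. Without GFPKO replicate 1 the count was 5 (Ndufaf6, Ndufb1, Ndufc1, Sdhd and Uqcr11), with 4.3% of all genes called higher. It was 8 without GFPKO replicate 2 or Treg replicate 3, 10 without Treg replicate 4, 11 without Treg replicate 5, 12 without Treg replicate 2 and 42 without GFPKO replicate 3. The share of all genes called higher moved with it, from 4.3% without GFPKO replicate 1 and 4.78% without GFPKO replicate 2 to 13.3% without GFPKO replicate 3, against 6.88% with all arrays. With GFPKO replicates 1 and 2 both left out, the median difference was 0.13 and 0 genes were called by limma (10 at an unadjusted p under 0.05, with 2.29% of all genes called higher), the lone GFPKO array being assumed to vary like the other groups. In that fit 1 gene, Sdhaf1, was called higher on GFPKO than on TN arrays.

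Other mitochondrial genes were read from lists drawn up by function. None of 12 citrate cycle genes was called by limma in any comparison. At an unadjusted p under 0.05, 0 were higher and 1 lower on Treg than on TN arrays (background 11.9% and 8.03%). For GFPKO minus TN 0 were higher and 2 lower (background 6.01% and 10.6%). For Treg minus GFPKO 5 were higher and 0 lower (background 16.7% and 6.54%). Their medians were -0.01, -0.15 and 0.17. Of 16 genes for protein import and folding, 2 rose on Treg relative to GFPKO arrays (12.5%, against 6.88% of all genes and 10.5% of those above background). These were Timm10, a chaperone of the intermembrane space (0.67, adjusted p 0.00485), and Hspe1, the co-chaperone of the matrix folding chamber (0.43, adjusted p 0.0169). Of 7 carriers, 1 rose in the same comparison (14.3%): Slc25a4, an ADP/ATP carrier, at 0.47 with an adjusted p of 0.0342. The Slc25a4 call held under 8 of 20 alternatives, that of Timm10 under 18 and that of Hspe1 under 15.

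Assembly factors whose symbols fall outside the prefixes were also called. Of 30 measured, 4 rose (13.3%, against 6.88% of all genes) and 1 fell (3.33%, close to the 2.55% of all genes) on Treg relative to GFPKO arrays. On GFPKO relative to TN arrays 4 fell (13.3%, against 3.02%) and 0 rose (1 at an unadjusted p under 0.05). Pet100, an assembly factor of complex IV, read 9.66, 9.67 and 9.70 on TN arrays, 9.75, 9.81, 9.65, 9.84 and 10.10 on Treg arrays and 8.87, 9.13 and 9.23 on GFPKO arrays. Treg minus GFPKO was 0.75 with an adjusted p of 0.00158. Coa6, which helps load copper into complex IV, read 8.49, 8.40 and 8.43 on GFPKO arrays and at least 8.87 on every other array. It fell by 0.58 from TN (adjusted p 0.00596). Cox16 fell by 0.77 (adjusted p 0.00388) and Cox10, which makes the haem of complex IV, fell by 0.76 (adjusted p 0.0229). The Cox16 call held under 19 of 20 alternatives, that of Coa6 from TN under 18 and that of Cox10 under 12. Ttc19, of complex III, went the other way, lower on Treg than on GFPKO arrays by 0.91 on the log2 scale (difference -0.91, adjusted p 0.00546).

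Among 17 regulators of mitochondrial genes, 1 rose and 1 fell in Treg against TN (5.88% each, against 6.54% and 3.42% of all genes). Myc rose by 0.69 on the log2 scale (adjusted p 0.00302), and Ppargc1b, a coactivator of nuclear respiratory genes, fell by 0.56 (adjusted p 0.0129). On GFPKO relative to TN arrays Myc rose by 0.59 (adjusted p 0.0345). Pprc1, a coactivator of the same family as Ppargc1b, fell by 0.69 (adjusted p 0.00315). Tfb1m, which methylates mitochondrial ribosomal RNA, fell by 0.58 (adjusted p 0.0432). The list thus had 1 gene higher (5.88%, against 2.64% of all genes) and 2 lower (11.8%, against 3.02%). The Myc call held under 9 of 20 alternatives, that of Pprc1 under 19 and that of Tfb1m under 6. Nrf1, whose motif is described above, differed between Treg and GFPKO arrays by -0.51 (adjusted p 0.0211), opposite in sign to the chain's median. In that comparison Pprc1 differed by 0.43 (adjusted p 0.0255). The list thus had 1 gene higher and 1 lower there (5.88% each, against 6.88% and 2.55% of all genes). The Nrf1 call held under 14 of 20 alternatives and this Pprc1 call under 11.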

How the data were processed

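The values are those of the series' deposited table, 1 log2 value per probe set and array, made by the authors with RMA per the submitters' processing notes; the version is not given in the sources used here. RMA fits background, quantile normalisation and probe effects, so levels of different probe sets can be compared only roughly. Such rough comparisons enter the background level, the reading of genes as bright or dim, and the means, medians and sums over genes. The log2 scale was read from the values (1.54 to 14.65, array medians 4.07 to 4.16). The table held 45101 probe sets. Left out were 64 controls, 932 with several symbols (10 of them with a symbol of the chain) and 9211 not in the gene table, which include some of the controls. The 34945 with 1 symbol gave 18193 genes, each represented by its brightest probe set (by mean over the series' 11 arrays); all 94 respiratory chain genes matched RefSeq by Entrez ID.

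All genes were tested with limma 3.58.1 (R 4.3.3) in a single fit of group means to the full set of arrays. The 3 contrasts were tested two-sided, Benjamini-Hochberg adjustment ran over all genes, and a gene was called below an adjusted p of 0.05. Levels are given as mean ± SD and differences ± SE. No sample was dropped or imputed, and precision is limited by how few arrays there are. The script was tested on simulated data.

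Named genes were drawn from the called members (at most 12 per contrast by size) and the largest increase and decrease per complex. Further sources were isoform genes, the Sdh subunits, members nearest the threshold and up to 4 called genes per other list. Not all of these are printed: Uqcrfs1, Uqcrb, Ndufb7, Atp5d, Atp5pb and Atp5mpl are among those left out. Cox6c, Ndufa1, Ndufa3, Ndufb11 and any others with printed values were chosen after their values were seen. The members and lists were chosen with earlier results of these data known. The background level was set with the values in hand. Alternatives covered the probe set per gene, dim genes, centring, the samples fitted, a replicate block, the variance model, array weights, the actin control and each array left out.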

Additional observations from a re-analysis of the deposited data

Results flagged for a closer look

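In 4 of 80 groups of 5 Treg arrays examined, 1 array stood apart from the rest by Dixon's gap test, and chance alone does this in about 1 group in 20. Cox7a2l, the supercomplex factor, read 12.09 on Treg replicate 3 and 11.98 to 12 on the other Treg arrays. Cox8b, the muscle form of a complex IV subunit, read 4.50 on Treg replicate 4 and 4.12 to 4.17 on the others, all below background. Ndufa5, an accessory subunit of complex I, read 9.84 on Treg replicate 5 and 9.68 to 9.70 on the others. Ndufaf6, the complex I assembly factor, read 6.26 on Treg replicate 2 and 6.59 to 6.72 on the others. All Treg arrays for Ndufa5 and Ndufaf6 still lay above every GFPKO array.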

How the results depend on the processing

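Of the 94 genes, limma called 2 higher and 1 lower for Treg minus TN, 0 higher (1 at an unadjusted p under 0.05) and 4 lower for GFPKO minus TN. Treg minus GFPKO gave 19 higher and 0 lower (49 and 0 before adjustment). Averaging all probe sets of a gene gave 8 lower for GFPKO minus TN (2.83% of all genes). It gave 1 lower, Sdha, for Treg minus GFPKO (2.81% of all genes). None of the Sdha probe sets above background passed on its own in the latter comparison. Without dim genes, 7 of 87 were lower for GFPKO minus TN, where 5.87% of the 8195 genes kept were called lower. With arrays centred, Treg minus TN gave 1 higher and 2 lower (4.97% and 6.45% of all genes) with a median of -0.04. Treg minus GFPKO gave 6 higher (3.71% of all genes). Array weights gave 7 higher and 3 lower for Treg minus TN, where 10.1% and 7.62% of all genes were called. For GFPKO minus TN they gave 1 higher and 28 lower (11.6% and 16.1% of all genes). For Treg minus GFPKO they gave 54 higher and 3 lower (24.3% and 12.8% of all genes). GFPKO replicate 2 had a weight of 5.11, against 0.254 for replicate 1 and 0.307 for replicate 3. The weighted GFPKO mean thus rested mostly on 1 array. With the actin difference as a covariate, Treg minus TN gave 5 higher (7.34% of all genes) and Treg minus GFPKO 4 higher (3.21% of all genes). In that fit GFPKO minus TN gave 1 higher and 0 lower (8 lower at an unadjusted p under 0.05). For that comparison 1.87% of all genes were called higher and 1.26% lower. With only the compared groups fitted, Treg minus TN gave 5 higher (8.47% of all genes) and Treg minus GFPKO 12 higher (5.46% of all genes). GFPKO minus TN then gave 0 lower (13 unadjusted), with 1.38% of all genes called lower. With GFPKO replicates 1 and 2 both left out, an alternative chosen after seeing the data, GFPKO minus TN gave 1 higher and 0 lower (7 unadjusted) and Treg minus GFPKO 0 higher (10 unadjusted). An intensity trend with robust variance kept all counts within 1.5 times. The cause of these shifts was not tested. Leaving out 1 array at a time gave 1 to 4 higher for Treg minus TN (4.75% to 8.05% of all genes). It gave 1 to 14 lower for GFPKO minus TN (1.49% to 6.73%) and 5 to 42 higher for Treg minus GFPKO (4.3% to 13.3%).

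The labels do not say what same-numbered arrays share beyond the number. Their deviations correlated at 0.157 to 0.507 for replicate 1, but down to -0.0694 for replicate 2 and -0.22 for replicate 3. With the replicate block, 1 gene was higher for Treg minus TN, where 5.38% of all genes were called higher. Treg minus GFPKO gave 2 in place of 19 (30 at an unadjusted p under 0.05), with 4.13% of all genes called higher. Whether same-numbered arrays share a batch was not tested.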

Other observations

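Of the genes around the chain, Atpif1 and Gpd2 gave larger differences than any of the 94 members. Atpif1, the inhibitor protein of ATP synthase, read 8.33, 8.21 and 8.23 on TN arrays, 9.41, 9.23, 9.27, 9.54 and 9.54 on Treg arrays and 8.42, 8.68 and 8.59 on GFPKO arrays. Treg arrays lay above all others, by 1.14 ± 0.12 over TN and 0.84 ± 0.12 over GFPKO (limma, adjusted p 7.1e-06 and 0.000353). With all its probe sets averaged they were 0.5 (adjusted p 0.00821) and 0.2 (adjusted p 0.31), so the second call was lost. Gpd2, which feeds electrons from cytosolic glycerol phosphate into the chain, was lowest on Treg arrays, with means of 7.56 on TN, 6.5 on Treg and 7.89 on GFPKO arrays. Treg minus TN was -1.06 ± 0.18 (adjusted p 0.000826) and Treg minus GFPKO -1.39 ± 0.18 (adjusted p 0.000156), called under all 19 and all 20 alternatives. Etfb, part of the electron carrier of fatty acid oxidation, was higher on Treg arrays by 0.58 over TN (adjusted p 0.0153) and by 0.60 over GFPKO (adjusted p 0.0162). Of the 12 other subunit and electron carrier genes, 2 rose (16.7%) and 1 fell (8.33%) for Treg minus TN, against 6.54% and 3.42% of all genes. For GFPKO minus TN 0 passed. For Treg minus GFPKO 3 rose (25%) and 1 fell (8.33%), against 6.88% and 2.55% of all genes.

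The mitochondrial ribosome, which makes the subunits encoded in mitochondrial DNA, was read by 76 genes. For Treg minus TN 2 rose (2.63%, against 6.54% of all genes) and 0 fell (5 at an unadjusted p under 0.05). For GFPKO minus TN 8 fell (10.5%, against 3.02%) and 0 rose (0 also before adjustment). For Treg minus GFPKO 14 rose (18.4%, against 6.88%) and 0 fell (0 also before adjustment). The median differences were 0.08, -0.28 and 0.33. Mrps28 fell by 0.80 from TN to GFPKO arrays (adjusted p 0.00425), and this call held under all 20 alternatives. Mrpl14 read 8.30, 8.49, 8.62, 8.6 and 8.72 on Treg arrays and 7.31, 7.78 and 8.20 on GFPKO arrays, a difference of 0.78 (adjusted p 0.00761). Mrps6 rose on Treg arrays by 0.72 over TN (adjusted p 0.0036). The median over these 76 genes relative to the TN mean ran from -0.57 to -0.06 over the GFPKO arrays.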
